A study of Homo sapiens with 6 samples.

Results

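Integrins and the scaffold proteins of focal adhesions were examined as a set of 39 genes given by symbol, made up of 13 integrin alpha subunits, 8 beta subunits and 18 scaffold, kinase and actin-linking genes. Every symbol matched a single row among the 60605 rows of the gene table that carry an Ensembl identifier. The RNA came from LX-2, an immortalised human hepatic stellate line, kept for 24 hours in medium that had been conditioned by HCT116 colorectal carcinoma cells. The HCT116 cells carried a lentiviral insert, either the empty vector (Vector-CM, n = 3) or FGFBP1 (FGFBP1-CM, n = 3), and the comparison asked how the LX-2 transcriptome differed when the tumor cells overexpressed this secreted FGF-binding protein. All cells were grown in DMEM with fetal bovine serum, both groups received tumor cell medium, and no library of LX-2 cells in unconditioned medium was analysed here. No label says whether the 3 libraries of a group came from separate cultures, so p-values measure only the spread between these libraries.

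An integrin is a pair of transmembrane subunits, 1 alpha and 1 beta, that binds extracellular matrix on the outside and the actin cytoskeleton on the inside. The alpha subunit largely sets the ligand: collagen, laminin, or the RGD motif found in fibronectin and vitronectin. Talin and kindlin bind the beta tail and switch the receptor on, the ILK complex, paxillin and the focal adhesion kinase assemble around it, and vinculin, filamin, tensin and alpha-actinin tie it to actin. Hepatic stellate cells turn into contractile, matrix-producing cells in injured liver, and integrins are how they sense that matrix and, through the ITGAV receptors, release active TGF-beta.

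Upstream sequence was available for 30 of the 39 genes in the RefSeq promoter table (GRCh38.p14), and the 250 bases before the first listed start were searched on both strands for the letters GGGCGG (bound by SP1), TGANTCA (AP-1), GCGNGGGCG (EGR1) and GGAATG (TEAD) and for the CArG box of SRF. GGGCGG and the EGR1 letters can overlap. GGGCGG was found in 18 of the 30 promoters and in 42.3% of all 27305 promoters, and the EGR1 letters in 7 of 30 against 8.25%. The AP-1 letters were found in 2 of 30 against 6.60%, the TEAD letters in 5 of 30 against 11.9%, and the CArG box in 2 of 30 against 1.14%. The background was all promoters, matched neither for base composition nor for expression, so no enrichment is drawn from these shares. A match is a run of letters and was not tested as a binding site. The 4 sequences here belong to ITGA2, the member with the clearest higher level in FGFBP1-CM, and to 3 members whose levels were lower there in every library, a beta subunit (ITGB5), a scaffold (PXN) and an actin linker (FLNA). They are written 5′ to 3′ on the strand of the gene, stop short of the transcribed span in GENCODE 29, and have 1 motif in capitals each, GGGCGG on either strand for ITGA2 and ITGB5, the EGR1 letters for PXN and the CArG box for FLNA. The ITGA2 matches lie 119 to 58 bases upstream of the start, the ITGB5 matches 119 to 30 bases, the PXN match 145 to 137 bases and the FLNA match 94 to 85 bases.
ITGA2, chr5:52989102-52989325, plus strand: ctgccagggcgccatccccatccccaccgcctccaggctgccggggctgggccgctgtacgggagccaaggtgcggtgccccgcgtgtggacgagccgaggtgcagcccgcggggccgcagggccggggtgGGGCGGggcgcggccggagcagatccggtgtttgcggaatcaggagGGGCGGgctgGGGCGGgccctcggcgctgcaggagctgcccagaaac
ITGB5, chr3:124901419-124901668, minus strand: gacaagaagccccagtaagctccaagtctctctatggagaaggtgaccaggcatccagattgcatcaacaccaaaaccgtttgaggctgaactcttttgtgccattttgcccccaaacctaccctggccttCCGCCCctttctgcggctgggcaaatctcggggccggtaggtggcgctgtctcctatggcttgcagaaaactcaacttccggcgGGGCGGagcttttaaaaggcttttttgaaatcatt
PXN, chr12:120265772-120265980, minus strand: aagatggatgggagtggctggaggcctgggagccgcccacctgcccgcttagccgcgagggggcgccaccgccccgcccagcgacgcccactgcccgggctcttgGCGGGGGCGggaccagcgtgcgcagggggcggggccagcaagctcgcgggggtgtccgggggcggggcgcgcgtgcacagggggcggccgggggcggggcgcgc
FLNA, chrX:154374639-154374884, minus strand: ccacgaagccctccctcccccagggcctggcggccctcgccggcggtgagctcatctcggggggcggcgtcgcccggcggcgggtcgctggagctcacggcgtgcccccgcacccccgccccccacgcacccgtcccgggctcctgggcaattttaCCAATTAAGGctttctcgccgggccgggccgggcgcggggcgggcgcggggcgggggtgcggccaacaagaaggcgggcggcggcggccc

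Total counts ranged from 14003780 to 18508113 per library, and a count of 0 allows up to 3 counts, or 0.158 to 0.217 CPM (the count scaled to library size). Such limits cover counting error only. Of the stellate cell markers, LRAT had no count in any library, and the summed level of the 12 markers was 3512 to 3785 CPM in Vector-CM and 2724 to 3261 CPM in FGFBP1-CM. Of 13 colorectal epithelial markers, 11 were under 1 CPM in every library. The 8 hepatocyte markers summed to 39.9 to 42.8 CPM in Vector-CM and 18.1 to 27.9 CPM in FGFBP1-CM. This sum and that of the stellate markers thus moved with the groups, but by unlike amounts. The median log2 fold change was -2.19 over the 5 tested hepatocyte markers. Over the 10 tested stellate markers it was -0.23, with 9 below 0 and 1 above. The part of either list in the results was not tested.

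LX-2 cells expressed a restricted integrin repertoire dominated by ITGB1 and by laminin, fibronectin and collagen receptor alpha subunits. Levels were compared between genes as the deposited FPKM, which divides by gene length. ITGB1, the shared partner of most of these alpha subunits, had the highest level of the 8 beta subunits at 86.9 ± 7.15 FPKM (SD, n = 6). ITGB5 followed at 11.0 ± 0.575 FPKM, ITGB3 at 5.14 ± 0.267 FPKM and ITGB4, the hemidesmosome subunit, at 2.07 ± 0.224 FPKM. The ranges of these 4 did not overlap over the 6 libraries. ITGB8 stood at 0.199 FPKM, and ITGB2, ITGB6 and ITGB7 were at or near 0.

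Among the alpha subunits, the laminin receptor subunit ITGA3 reached 85.2 ± 4.40 FPKM (SD, n = 6) and the fibronectin receptor subunit ITGA5 reached 76.3 ± 6.05 FPKM, and their ranges overlapped. ITGA6, a second laminin receptor subunit, was at 34.0 ± 1.43 FPKM and ITGA2, which pairs with ITGB1 to bind collagen, at 26.9 ± 6.28 FPKM, again with overlapping ranges. ITGAV followed at 9.88 ± 0.828 FPKM and ITGA7 at 8.25 ± 1.05 FPKM, overlapping as well. The collagen receptor subunits other than ITGA2 were low, with ITGA1 at 1.73 FPKM, ITGA11 at 0.638 FPKM and ITGA10 at 0.170 FPKM. ITGA2B, best known from platelets, was at 1.03 FPKM. Of 4 platelet genes, GP9, PF4 and PPBP had no count in any library. GP1BA was detected, at 1.67 to 1.95 CPM in Vector-CM and 1.11 to 1.69 CPM in FGFBP1-CM. Ordering by CPM gave the same ranks except that ITGA11 and ITGA2B changed places. ITGA2 was the fourth alpha subunit by either measure, and the plot of FPKM by subunit shows it as the only alpha subunit whose groups separate upwards.

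**Figure D1:**
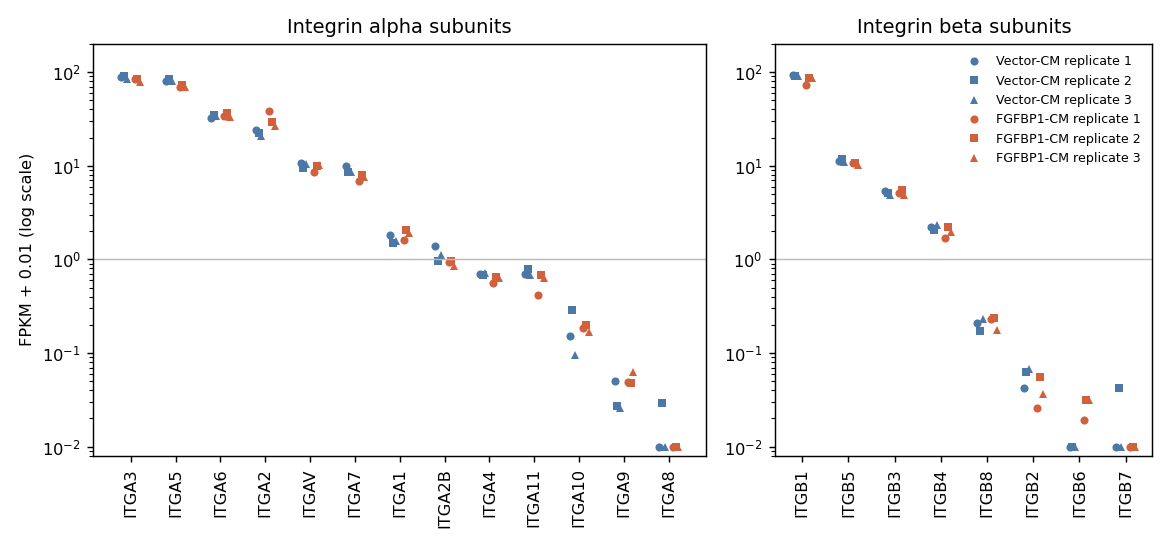
Level of each integrin alpha subunit (left) and beta subunit (right), as FPKM plus 0.01 on a log axis, with 1 point per library and the groups in blue (Vector-CM) and red (FGFBP1-CM). ITGA3, ITGA5 and ITGB1 sit near 80 FPKM, the grey line marks 1 FPKM, and ITGA2 is the alpha subunit with all red points above all blue ones among those over 10 FPKM.

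Of the scaffold and linker genes, FLNA, the actin cross-linker filamin A, had the highest level at 547 ± 41.7 FPKM (SD, n = 6), ahead of ACTN4 at 113, FLNC at 89.5, VCL at 67.8, ACTN1 at 57.8 and TLN1 at 54.9 FPKM. ZYX stood at 41.3 and PXN at 31.8 FPKM. ILK was the lowest at 1.65 FPKM, and 78.5% of its exon bases in GENCODE 29 are shared with genes on the opposite strand, TAF10 among them, so its counts are uncertain where the strand setting of the counting is not given. Exons of other genes covered 51.6% of ITGB3 (AC068234.1, same strand), 42.1% of ITGB7 (ZNF740, opposite strand) and 20.6% of ITGB6 (AC092153.1, same strand). They covered 14.2% of ACTN4, 12.4% of PXN and 11.1% of VCL. LIMS1 has near-identical relatives among which reads could have been split.

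The comparison of FGFBP1-CM with Vector-CM gave small differences, most of them downward, with ITGA2 as the exception. No member was called at an adjusted p under 0.05 by edgeR, whose quasi-likelihood test called 20 of 16707 genes (0.12%), 9 higher (0.0539%) and 11 lower (0.0658%). Of the 34 members tested, 12 were lower and 1 was higher at an unadjusted p under 0.05 (35.3% and 2.94%), against 10.7% lower and 11.1% higher among all tested genes. DESeq2 called 2 members, ITGA2 and ITGA5, where it called 4.94% of the genes for which it gave an adjusted p, and limma on log2(FPKM + 1) or log2(FPKM + 0.1) called 0 (0.00599% of all tested genes in each). The log2 fold change was below 0 for 25 members and above 0 for 9, with a median of -0.13 beside 0.00 for all tested genes. The levels of the groups did not overlap for 16 of the tested members with lower values in FGFBP1-CM (47.1%, against 13.2% of all tested genes) and for 1 with higher values (2.94%, against 12.8%). Of the 39 members, 28 had a mean of at least 10 CPM. Among the 9882 tested genes at that level, 13.7% were lower and 13.4% higher at an unadjusted p under 0.05. Of the 28 members, 10 were lower and 1 was higher (35.7% and 3.57%). Non-overlapping groups at that level made up 16.4% of genes downward and 14.8% upward, beside 12 members downward (42.9%).

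The count of 12 moved with the libraries used. It was 6, 5 and 6 without Vector-CM replicates 1, 2 and 3, and 9, 14 and 7 without FGFBP1-CM replicates 1, 2 and 3. The share of all tested genes at an unadjusted p under 0.05 was not computed for these fits, so these counts have no background. Without FGFBP1-CM replicate 2, edgeR called ITGA2 and ITGA7 at an adjusted p under 0.05, and without FGFBP1-CM replicate 3 it called ITGA2, in fits that called 5.15% and 2.34% of tested genes. The median over members of the log2 deviation from the Vector-CM mean was -0.13, -0.05 and -0.16 in FGFBP1-CM replicates 1, 2 and 3, and between -0.02 and 0.03 in the Vector-CM libraries. Fold changes over all tested genes ran downward with the GC content of the gene (Spearman's rho -0.206 across genes, which are not independent replicates). After a correction for GC content and length, which left rho at -0.0143, 10 members were lower at an unadjusted p under 0.05 and the median was -0.11. The share of all tested genes at that threshold was not computed for the corrected fit either.

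**Figure D2:**
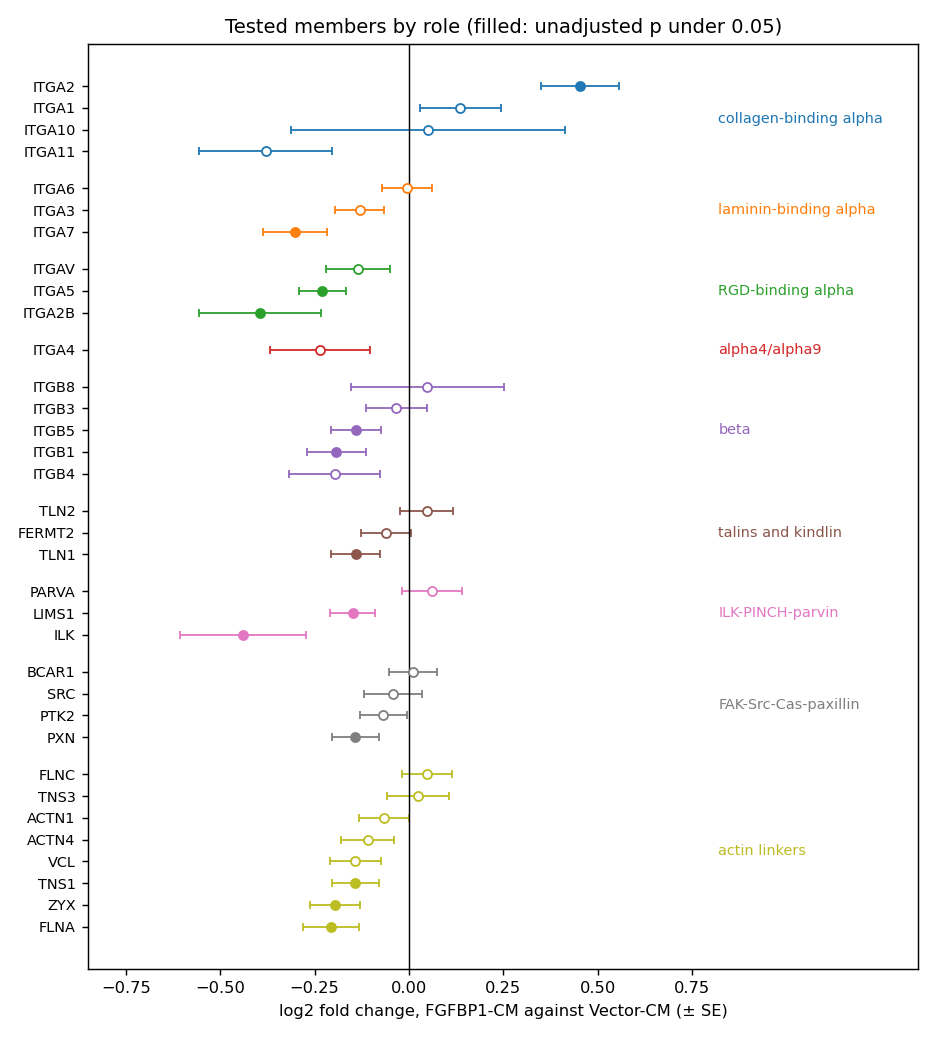
Log2 fold change (FGFBP1-CM against Vector-CM) with its standard error for the 34 tested members, grouped and coloured by role, with filled points for an unadjusted p under 0.05. ITGA2 stands alone on the right at 0.45, and the 12 other filled points lie on the left between -0.44 and -0.14.

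ITGA2 (ENSG00000164171; chromosome 5, 52989326 to 53094779, plus strand, 30 exon blocks in GENCODE 29) encodes the collagen-binding alpha subunit with the highest level in these cells. Its CPM was 191, 180 and 167 in the Vector-CM libraries (replicates in order) against 293, 234 and 211 in the FGFBP1-CM libraries. Every FGFBP1-CM library was above every Vector-CM library, with FGFBP1-CM replicate 1 the highest. The means were 180 ± 12.3 and 246 ± 42.6 CPM (SD, n = 3), a 1.37-fold difference, and the log2 fold change was 0.45 (SE 0.102, unadjusted p = 0.000645, adjusted p = 0.0619, edgeR). The log2 fold change was 0.31 without FGFBP1-CM replicate 1 (adjusted p = 0.0651, edgeR), 0.55 without FGFBP1-CM replicate 3 (adjusted p = 0.0199, edgeR) and 0.37 after GC and length correction (adjusted p = 0.0819, edgeR). ITGA2 passed the threshold in 5 of 16 alternatives. They were DESeq2 (adjusted p = 0.00296), the fits without FGFBP1-CM replicate 2 or 3, the fit without a filter and the replicate block. The last 2 called 3.64% and 0.539% of genes. Over all alternatives the adjusted p of ITGA2 ran from 8.41e-08 (edgeR without a filter) to 0.250. No exon of another GENCODE 29 gene overlaps ITGA2.

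Values of the other collagen receptor subunits were mixed. ITGA1, whose gene lies next to ITGA2 on chromosome 5 (52787896 to 52959210, plus strand), averaged 30.6 ± 3.11 CPM in Vector-CM against 33.8 ± 4.65 (SD, n = 3) with overlapping groups, a log2 fold change of 0.14 (SE 0.107) that ran from 0.05 to 0.24 with 1 library left out and was 0.05 after GC and length correction. ITGA11, a receptor for fibrillar collagen, had lower values in every FGFBP1-CM library, at 7.85 ± 0.591 against 6.07 ± 1.54 CPM, with a log2 fold change of -0.38 (SE 0.176, unadjusted p = 0.0501, adjusted p = 0.230, edgeR), and -0.17 without FGFBP1-CM replicate 1 (adjusted p = 0.599, edgeR). ITGA10 was near 1 CPM in both groups, and its log2 fold change of 0.05 (SE 0.363) changed sign when Vector-CM replicate 1, Vector-CM replicate 3 or FGFBP1-CM replicate 2 was left out.

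**Figure D3:**
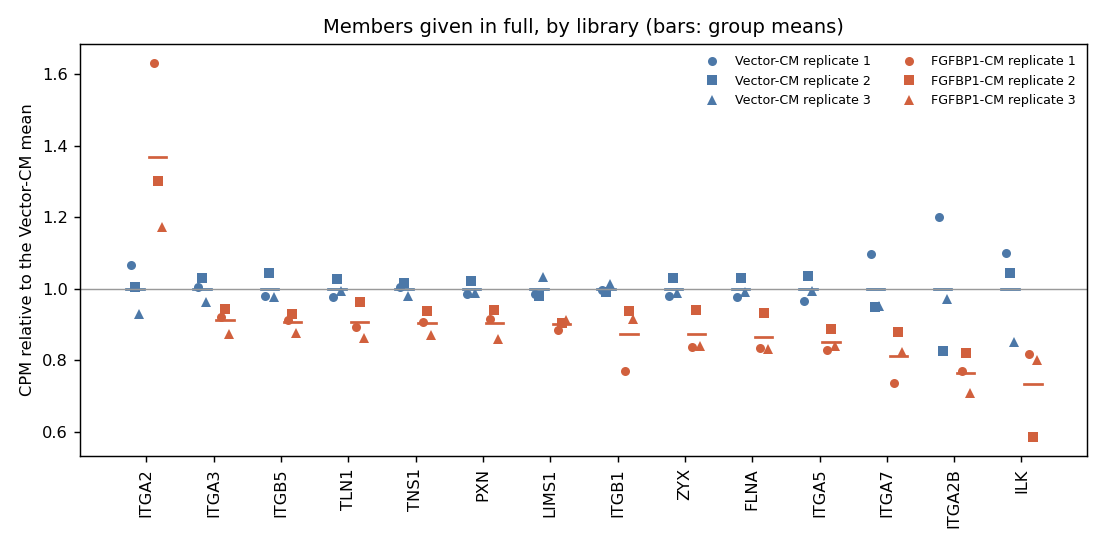
CPM of the 14 members described in full, divided by the Vector-CM mean of the gene, with 1 point per library and bars at the group means. The ITGA2 points of FGFBP1-CM lie above 1.1, and for each of the other 13 genes all 3 FGFBP1-CM points lie under the 3 Vector-CM points.

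The receptor subunits for fibronectin and laminin were level or had lower values in FGFBP1-CM. ITGA5 (ENSG00000161638; chromosome 12, 54395261 to 54419460, minus strand) had 590, 633 and 607 CPM in the 3 Vector-CM libraries and 507, 542 and 512 CPM in the 3 FGFBP1-CM libraries. The groups were apart, and the log2 fold change was -0.23 (SE 0.0631, adjusted p = 0.0847, edgeR). ITGA7 (ENSG00000135424; chromosome 12, 55684568 to 55716043, minus strand), a laminin receptor subunit of muscle, had 64.0, 55.3 and 55.5 CPM in Vector-CM against 42.9, 51.3 and 48.0 in FGFBP1-CM. FGFBP1-CM replicate 1 was the lowest and Vector-CM replicate 1 the highest, and the log2 fold change was -0.30 (SE 0.0852, adjusted p = 0.0888, edgeR).

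ITGA3, the alpha subunit with the highest level, was 879, 903 and 844 CPM in Vector-CM against 806, 827 and 766 in FGFBP1-CM. All 3 FGFBP1-CM values were below the others in CPM, but the nearest libraries (827 and 844 CPM) were closer than 1 SD of either group (29.4 and 31.0 CPM). In FPKM the groups of ITGA3 overlapped, at 84.0 in Vector-CM replicate 3 and 84.2 in FGFBP1-CM replicate 2. The log2 fold change was -0.13 (SE 0.0641, unadjusted p = 0.0613, adjusted p = 0.254, edgeR), or -0.05 after GC and length correction. ITGA6 averaged 228 ± 8.41 CPM in Vector-CM against 227 ± 14.8 (SD, n = 3). The log2 fold change of ITGA6, 0.00, took either sign among the alternatives. Of the RGD-binding subunits besides ITGA5, ITGA2B was low, at 7.98, 5.50 and 6.47 CPM in Vector-CM against 5.12, 5.46 and 4.71 in FGFBP1-CM, and its log2 fold change was -0.39 (SE 0.161, adjusted p = 0.181, edgeR), or -0.23 without Vector-CM replicate 1 (adjusted p = 0.506, edgeR). The highest FGFBP1-CM value and the lowest Vector-CM value of ITGA2B were nearly the same in CPM, and in FPKM its groups overlapped. ITGAV was 85.2 ± 6.16 against 77.7 ± 8.23 CPM with overlapping groups and a log2 fold change of -0.14 (SE 0.0849), which was -0.05 without FGFBP1-CM replicate 1 and -0.22 after GC and length correction. ITGA4, a receptor for VCAM1 and fibronectin, was 7.43 ± 0.214 against 6.32 ± 0.599 CPM (log2 fold change -0.24, SE 0.132, adjusted p = 0.318, edgeR), or -0.16 without FGFBP1-CM replicate 1.

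ITGB1 (ENSG00000150093; chromosome 10, 32900319 to 33005792, minus strand) had 1351, 1342 and 1373 CPM in Vector-CM against 1043, 1271 and 1243 in FGFBP1-CM. FGFBP1-CM replicate 1, the library with the highest ITGA2, had the lowest ITGB1. The log2 fold change of ITGB1 was -0.19 (SE 0.0781, unadjusted p = 0.0278, adjusted p = 0.178, edgeR), and -0.11 without that library (adjusted p = 0.486, edgeR). ITGB5, a vitronectin receptor subunit that pairs with ITGAV, had 73.7, 78.5 and 73.4 CPM in Vector-CM against 68.7, 70.0 and 65.9 in FGFBP1-CM. Its groups were apart by a small margin (log2 fold change -0.14, SE 0.0651, unadjusted p = 0.0497, adjusted p = 0.229, edgeR). The groups of the remaining tested beta subunits overlapped, with log2 fold changes of -0.20 for ITGB4, -0.03 for ITGB3 and 0.05 for ITGB8, the last 2 of either sign among the alternatives.

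The share of ITGA2 in the summed FPKM of the 12 alpha subunits that can pair with ITGB1 was computed as a description, since the values of these subunits were already known. An exact permutation test was also run on the shares and ratios. With 3 libraries against 3 its smallest possible p is 0.1, so it could not reach the threshold and is not used. The share was 9.67%, 8.88% and 8.57% in Vector-CM and 15.6%, 12.1% and 11.7% in FGFBP1-CM. All FGFBP1-CM libraries exceeded all Vector-CM libraries, with means of 13.1 ± 2.14% and 9.04 ± 0.568% (SD, n = 3). ITGA5 took 32.8 ± 0.854% in Vector-CM and 29.7 ± 0.854% in FGFBP1-CM, and ITGA3 took 35.5 ± 0.510% and 34.4 ± 0.0811%. The sum itself was 248 ± 6.72 and 239 ± 9.03 FPKM, with overlapping groups. The ratio of ITGA2 to ITGB1 in FPKM was 0.261, 0.248 and 0.224 in Vector-CM against 0.518, 0.339 and 0.312 in FGFBP1-CM, with FGFBP1-CM replicate 1 far above the rest. The ratio of ITGA2 to ITGA1 overlapped between groups, at 13.2, 15.01 and 13.3 against 24.0, 14.5 and 14.2. These are ratios of transcripts, not of receptor pairs.

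**Figure D4:**
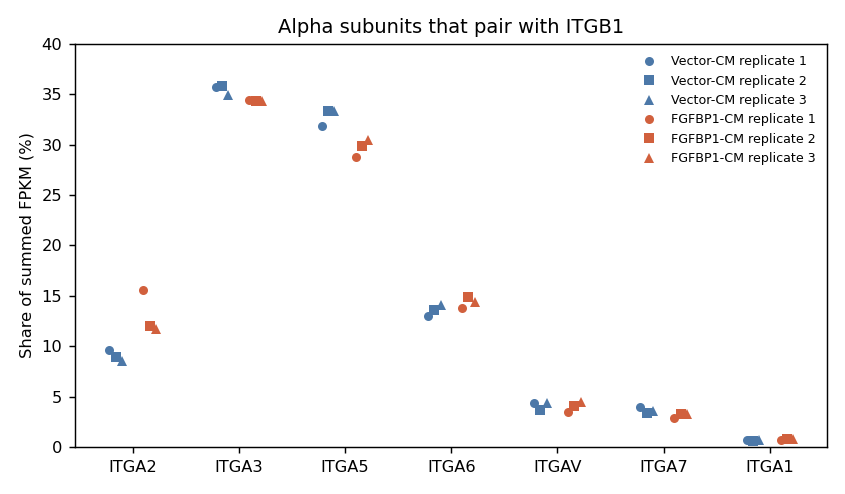
Share (%) of each alpha subunit in the summed FPKM of the 12 subunits that can pair with ITGB1, for the 7 with the highest level, with 1 point per library. The ITGA2 share lies between 8.57% and 9.67% in Vector-CM and between 11.7% and 15.6% in FGFBP1-CM, and the ITGA5 share is lower in all 3 FGFBP1-CM libraries.

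Of the proteins that activate integrins from the inside, TLN1, the ubiquitous talin, had 557, 587 and 568 CPM in Vector-CM against 510, 550 and 492 in FGFBP1-CM. The groups did not overlap, but the nearest libraries (557 and 550 CPM) were closer than 1 SD of either group (14.9 and 29.7 CPM). The log2 fold change of TLN1 was -0.14 (SE 0.0652, unadjusted p = 0.0498, adjusted p = 0.229, edgeR). TLN2 and the kindlin FERMT2 had overlapping groups and log2 fold changes of 0.05 and -0.06. In the ILK complex, which couples beta tails to actin, LIMS1 (PINCH) had 147, 146 and 154 CPM in Vector-CM against 132, 135 and 136 in FGFBP1-CM, the tightest FGFBP1-CM group of those described (log2 fold change -0.15, SE 0.0599, adjusted p = 0.174, edgeR). ILK itself had only 7.31, 6.94 and 5.66 CPM in Vector-CM against 5.43, 3.89 and 5.32 in FGFBP1-CM (log2 fold change -0.44, SE 0.167, adjusted p = 0.156, edgeR). In FPKM the groups of ILK overlapped. PARVA, the actin-binding parvin, overlapped between groups at 0.06.

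Among the signaling scaffolds, PXN (paxillin) had 246, 255 and 247 CPM in Vector-CM against 229, 235 and 214 in FGFBP1-CM. Its groups were apart, and the log2 fold change was -0.14 (SE 0.0621, adjusted p = 0.203, edgeR), or -0.07 after GC and length correction. PTK2, the focal adhesion kinase, was 138 ± 3.71 and 132 ± 5.11 CPM (SD, n = 3; log2 fold change -0.07), and SRC and the Cas adaptor BCAR1 were at -0.04 and 0.01 on the log2 scale, with overlapping groups and with signs that turned in some alternatives.

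The 8 actin linkers included the most abundant members. FLNA (ENSG00000196924; chromosome X, 154348524 to 154374638, minus strand) had 6244, 6583 and 6335 CPM in Vector-CM against 5326, 5959 and 5320 in FGFBP1-CM. Its groups were apart, FGFBP1-CM replicate 2 lay closest to Vector-CM, and the log2 fold change was -0.21 (SE 0.0733, unadjusted p = 0.0142, adjusted p = 0.138, edgeR). ZYX, the zyxin that gathers on tense actin fibers, had 142, 149 and 143 CPM against 121, 136 and 122 CPM (log2 fold change -0.20, SE 0.0667, adjusted p = 0.125, edgeR, and -0.12 after GC and length correction), with FGFBP1-CM replicate 2 again the closest to Vector-CM. TNS1, a tensin of mature adhesions, had 103, 104 and 100 CPM against 93.1, 96.1 and 89.3 CPM (log2 fold change -0.14, SE 0.0621, adjusted p = 0.203, edgeR). VCL, vinculin, was 713 ± 18.4 against 646 ± 42.5 CPM. Its groups did not overlap, but the nearest libraries (692 and 687 CPM) were closer than 1 SD of either group. The log2 fold change of VCL was -0.14 (SE 0.0674, unadjusted p = 0.0545, adjusted p = 0.241, edgeR), or -0.09 without FGFBP1-CM replicate 1. ACTN4 and ACTN1, the alpha-actinins, overlapped at -0.11 and -0.07 (ACTN4 at -0.05 without FGFBP1-CM replicate 3 or after GC and length correction), and FLNC and TNS3 at 0.05 and 0.02, the last of either sign among the alternatives. Of the 13 lower members described in full, FGFBP1-CM replicate 3 held the lowest FGFBP1-CM value in 7, replicate 1 in 5 and replicate 2 in 1.

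**Figure D5:**
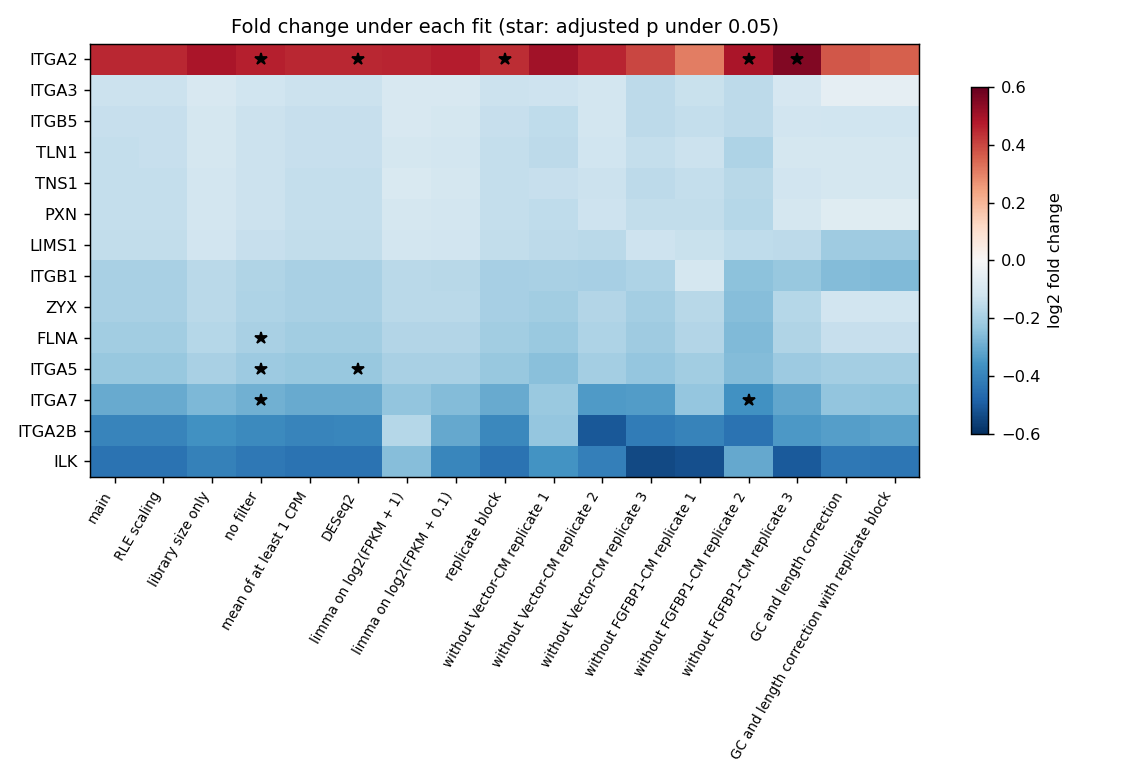
Log2 fold change (colour) of the 14 members described in full under the main edgeR fit and 16 alternatives, with a star where the adjusted p was under 0.05. Every cell of the ITGA2 row is above 0 and every cell of the other rows is below 0, and the stars, 5 of them on ITGA2, fall in the fits without a filter, with DESeq2, with the replicate block and without FGFBP1-CM replicate 2 or 3.

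The 5 members outside the test were at the limit of detection. ITGA8, the stellate and mesangial RGD receptor subunit, had 2 counts in Vector-CM replicate 2 and 0 elsewhere, and ITGB7 had the same counts. ITGA9 had 2 to 7 counts per library, ITGB2, the leukocyte beta subunit, had 2 to 6, and ITGB6, an epithelial activator of TGF-beta, had 0, 0 and 0 in Vector-CM and 1, 2 and 2 in FGFBP1-CM. The counts of ITGB6 did not overlap between groups but lie at or under the limit of 3 counts, so no fold is given. In the edgeR fit without a filter ITGB6 had an unadjusted p of 0.0384 (adjusted p = 0.335), and the other 4 did not reach an unadjusted p under 0.05. Of 5 leukocyte alpha subunits outside the set, ITGAL, ITGAM and ITGAD were likewise not tested, ITGAE was 22.4 ± 1.73 against 24.9 ± 1.55 CPM, and ITGAX was 14.5 ± 2.02 against 11.3 ± 0.193 CPM (SD, n = 3, unadjusted p = 0.00877, adjusted p = 0.116, edgeR), with a log2 fold change of -0.36, or -0.23 without Vector-CM replicate 1.

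A wider list of 60 adhesion genes (further parvins, tensins, Cas and Ena/VASP proteins, LIM proteins, integrin regulators) was read from the same fit. None of the 55 tested was called by edgeR, while 16 (29.1%) were lower and 3 (5.45%) higher at an unadjusted p under 0.05, beside 10.7% and 11.1% of all tested genes, and the median log2 fold change was -0.08. DESeq2 called 4, where it called 4.94% of genes, and limma called 0. Without FGFBP1-CM replicate 2, where 5.15% of tested genes were called, edgeR called 6. Among the lowest of those with a mean of at least 1 CPM were LIMS2 and CIB1. LIMS2, the second PINCH, was 17.4 ± 2.12 against 13.6 ± 1.55 CPM (log2 fold change -0.36, adjusted p = 0.120, edgeR), and CIB1, a calcium-binding partner of ITGA2B, was 69.2 ± 2.72 against 57.0 ± 2.75 CPM (log2 fold change -0.28, adjusted p = 0.0680, edgeR). The 3 highest were KANK1, which binds talin, KRIT1, a partner of the integrin regulator ITGB1BP1, and PIP5K1C, at 0.29, 0.24 and 0.23 on the log2 scale. KANK1 fell to 0.06 in limma on log2(FPKM + 1). Its lowest adjusted p over the alternatives was 0.352 (edgeR by library size only). For KRIT1 the lowest was 0.215 (edgeR without Vector-CM replicate 1). Of the exon bases of KRIT1, 47.9% are shared with other genes on the same strand. PIP5K1C, which makes the lipid that recruits talin, was 36.5 ± 2.48 against 42.8 ± 2.90 CPM (adjusted p = 0.138, edgeR).

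The genes on either side of the adhesion, its matrix ligands and the contractile apparatus, had medians further below 0 than the members, a difference that was not tested. Of 31 integrin ligands, 30 were tested and 0 called by edgeR, 17 (56.7%) were lower and 1 (3.33%) higher at an unadjusted p under 0.05, and the median log2 fold change was -0.28, with 29 below 0. DESeq2 called 7, where it called 4.94% of genes, and limma 0. The edgeR count was 2, 13 and 5 without FGFBP1-CM replicates 1, 2 and 3, where 0.421%, 5.15% and 2.34% of tested genes were called. Of 18 contractile genes, 0 were called by edgeR, 9 (50.0%) were lower and 0 higher at an unadjusted p under 0.05, and the median was -0.17, with 16 below 0. DESeq2 called 3 and limma 0, and without FGFBP1-CM replicate 2 edgeR called 5, beside the same 4.94% and 5.15% of genes. The background for the shares at an unadjusted p under 0.05 is the same 10.7% lower and 11.1% higher of all tested genes. In these bulk libraries a smaller amount of such a transcript per cell and fewer cells carrying it cannot be told apart.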

How the data were processed

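RNA-seq of 6 LX-2 libraries, 3 per group, was analysed, with groups and replicate numbers from the sample labels. The authors aligned reads with HISAT2 2.0.5 and deposited raw counts per gene from featureCounts 1.5.0-p3. The deposited table also holds an FPKM value per gene and library. The processing notes also name DESeq2 1.16.1, edgeR and the build hg18, but 96.3% of the Ensembl identifiers were found in GENCODE 29 (GRCh38), and for 58.9% of 36572 genes the length implied by FPKM and count equalled its exon length within 0.5 bases. Coordinates are those of GENCODE 29 and need not be those used for counting. The annotation release and strand setting are not given in the sources used here, and both poly(A) selection and ribosomal RNA depletion are described. Protein sequences were not used here.

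The fit used edgeR 4.0.16 under R 4.3.3 (filterByExpr, TMM, quasi-likelihood F-test, Benjamini-Hochberg over 16707 genes, threshold 0.05). CPM are relative to TMM-scaled library sizes, and the standard error is the size of the log2 fold change divided by the square root of F. Rows with an identifier of the authors' own (175 of 60780) stayed in the test. Alternative fits took library size only or RLE scaling, no filter or a mean of at least 1 CPM, DESeq2 1.42.0, limma 3.58.1 on log2(FPKM + 1) and log2(FPKM + 0.1), the replicate block, each library left out, and a loess correction (span 0.3) for GC content and length, alone and with the block. Of the tested genes, 98.2% had a GC content. The background of genes with a mean of at least 10 CPM and the alternatives for the ligand and contractile lists were added after the data were seen.

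The members and lists were chosen with earlier results of these data known. Full values are given for members with an adjusted p under 0.05, for those with an unadjusted p under 0.05 and groups that do not overlap in CPM, and for the 2 alpha and 2 beta subunits with the highest FPKM. The other adhesion genes named are those at either end of the log2 fold changes, 3 each, with a mean of at least 1 CPM. A gene that this rule names is not reported here. The test was run on simulated data (5 draws over 16707 genes, 200 of them given a 2-fold change), where edgeR recovered 81.6% of the changed genes and 5.75% of its calls were false.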

Additional observations from a re-analysis of the deposited data

How the results depend on the processing

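All genes called numbered 20 and moved to 38 with RLE scaling, 1382 without a filter, 11 at a mean of at least 1 CPM, 585 with DESeq2, 1 with either limma fit, 90 with the replicate block, 124 with GC and length correction, 163 with that correction and the block, and 4 to 883 with 1 library left out. The members called numbered 0 and moved to 4 without a filter (ITGA2, FLNA, ITGA5, ITGA7), 2 with DESeq2, 1 with the replicate block (ITGA2) and 0 to 2 with 1 library left out. The 12 members lower at an unadjusted p under 0.05 became 7 by library size only, 6 in either limma fit and 5 to 14 with 1 library left out. The 1 member higher became 2 without a filter and 1 to 2 with 1 library left out. For neither count was the share of all tested genes computed in the alternatives. The median log2 fold change of members was -0.0861 in limma on log2(FPKM + 1) and -0.156 to -0.0915 with 1 library left out. The 16 members lower without overlap were 13 to 19 in all alternatives run. Groups with fewer libraries separate more readily, and the share of all genes was not computed there, so this range does not measure stability.

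Other adhesion genes called were 5 without a filter, 4 with DESeq2, 1 with the block, 2 with the correction and block, and 0 to 6 with 1 library left out. Integrin ligands called were 1 with RLE scaling, 12 without a filter, 7 with DESeq2, 4 with the block, 3 with the correction, 5 with the correction and block, and 0 to 13 with 1 library left out. Contractile genes called were 4 without a filter, 3 with DESeq2, 2 with the block, 2 with the correction, 3 with the correction and block, and 0 to 5 with 1 library left out. Over all genes the share called was 3.64% without a filter, 4.94% with DESeq2 and 0.539% with the block. For the other fits the counts of all genes called are those given above. The cause of the moves in all these counts was not tested.

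Of 637 values of single genes under 16 alternatives, 590 kept direction and side of the threshold, 18 newly passed and 29 turned sign. The turned signs fell in 8 genes, all with small fold changes in the main fit. ITGA6 was 0.0290 by library size only, 0.00784 without a filter, 0.0269 and 0.0276 in the limma fits and -0.0594 to 0.0239 with 1 library left out. ITGB3 was 0.000183 by library size only, 0.000663 and 0.000689 in the limma fits and -0.0896 to 0.00645 with 1 library left out. ITGB8 was -0.0365 with the GC and length correction, -0.0402 with the block added, and -0.0620 to 0.172 with 1 library left out. PARVA was -0.00145 with the correction and -0.0117 to 0.127 with 1 library left out, and SRC was 0.0155 with the correction, 0.0163 with the block added, and -0.0869 to 0.0160 with 1 library left out. With 1 library left out, ITGA10 ran from -0.250 to 0.554, BCAR1 from -0.00887 to 0.0324 and TNS3 from -0.0390 to 0.0829.

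Deviations from the group means were not shared by libraries of the same number (correlations -0.118, -0.0220 and 0.148 over 15033 genes), so the replicate numbers were not taken as pairs, and the block is only an alternative. For 3 single genes DESeq2 left the adjusted p missing. The simulated data held 2-fold changes, and differences as small as those of the members were not simulated, so a p above the threshold does not show that levels were equal.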
